A study of Arabidopsis thaliana with 6 samples.

Results

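The genes described here are the plant U-box (PUB) genes of Arabidopsis thaliana that could be followed by name on the ATH1 array, an Affymetrix array that reads each transcript through a probe set of several short probes. They were found by searching the names and synonyms of nuclear genes with a single-gene probe set for the words RING/U-box, RING finger or U-box, since the annotation tables used here hold names and no separate description. The search found 9 genes of 13217, and all 9 carry the word U-box. The annotation holds 23 nuclear loci with that word, and only these 9 had a named single-gene probe set. The RING words matched none of the measured genes, so the group is called the plant U-box genes, and RING genes known by other names are described after them. Each of the 9 genes had 1 probe set, and all 9 probe sets have the plain ending that marks no listed sharing with another gene.

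There were 3 groups of 2 arrays each, described in the design text as biological replicates, all from plants labelled as 3 weeks old. The first was the amiR-ETP1/2 line, which carries an artificial microRNA against the F-box protein genes ETP1 and ETP2 and for which the labels give neither a gas treatment nor the number of independent lines. The second was Col-0, the wild type and parent strain, exposed to ethylene gas at 10 ppm in hydrocarbon-free air, for 4 h according to the characteristics and for 24 h according to the titles. The third was Col-0 kept as the air control. The labels name no organ and do not say whether tissue was pooled over plants.

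Ubiquitin is passed from an activating enzyme (E1) to a conjugating enzyme (E2) and is placed on a target protein with the help of a ligase (E3), after which many targets are broken down by the proteasome. RING and U-box domains share a fold that binds the loaded E2, the RING with bound zinc and the U-box without it. Ethylene signalling depends on such breakdown, because ETP1 and ETP2 act through SCF ligases on EIN2, the membrane protein through which the ethylene signal passes. Several plant U-box ligases restrain immune and drought responses. No sequence is shown for these genes.

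The ethylene arrays stood apart from the other 4 as a whole. Taken across probe sets, whose values are not independent of each other, Pearson's r was 0.791 to 0.810 between ethylene and air arrays, 0.792 to 0.801 between amiR-ETP1/2 and ethylene arrays, and 0.975 to 0.981 between amiR-ETP1/2 and air arrays. Array medians ran from 4.39 to 4.46 on the log2 scale. All 6 measured of 8 leaf photosynthesis markers fell with ethylene, and their summed linear signal was 31644 and 33622 in amiR-ETP1/2, 4372 and 4297 with ethylene and 34570 and 33182 in air. Of 7 senescence markers 4 were measured and 3, WRKY6, WRKY22 and WRKY53, rose with ethylene. The summed signals of the 4 were 127 and 184 in amiR-ETP1/2, 230 and 286 with ethylene and 83 and 84 in air. These sums include SAG29, which ethylene did not raise. Its log2 levels were 5.86 and 6.91 in amiR-ETP1/2, 4.88 and 5.12 with ethylene and 4.91 and 4.94 in air. Of 6 root markers 3 were measured and 1, PYK10, fell with ethylene, with summed signals of 797 and 710 in amiR-ETP1/2, 79 and 59 with ethylene and 685 and 480 in air. The part of these marker shifts in the results below was not tested. The GAPDH 3' signal exceeded the 5' signal by 0.52 and 0.66 log2 units in amiR-ETP1/2, 1.02 and 1.76 with ethylene and 0.77 and 1.76 in air. The actin 3' signal exceeded the 5' signal by 4.78 and 5.20 log2 units in amiR-ETP1/2, 3.40 and 3.51 with ethylene and 4.04 and 4.68 in air. The ethylene arrays thus overlapped the air arrays in the GAPDH measure and lay below the other 4 in the actin measure, and the part of these RNA quality measures in the results was not tested. The microRNA target ETP2 had log2 levels of 4.23 and 4.47 in amiR-ETP1/2, against 4.06 and 4.14 in air (difference 0.25, SE 0.14, limma adjusted p = 0.448). A lower ETP2 transcript was thus not measured in the line, and the other target, ETP1, was not examined here.

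With ethylene 4 plant U-box genes rose, PUB43, PUB24, PUB49 and PUB23, by between 2.09-fold and 3.20-fold, and none of the 9 fell by the limma test at an adjusted p under 0.05. Over all 22746 probe sets, 18.9% were called higher and 36.0% were called in either direction. In amiR-ETP1/2 against air 0 of 9 were called, and 3 of the 4 genes that rose with ethylene were lower in amiR-ETP1/2 than in the ethylene arrays. The values are for whole samples, in which more or fewer cells of a type and more or less RNA per cell cannot be told apart.

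**Figure D1:**
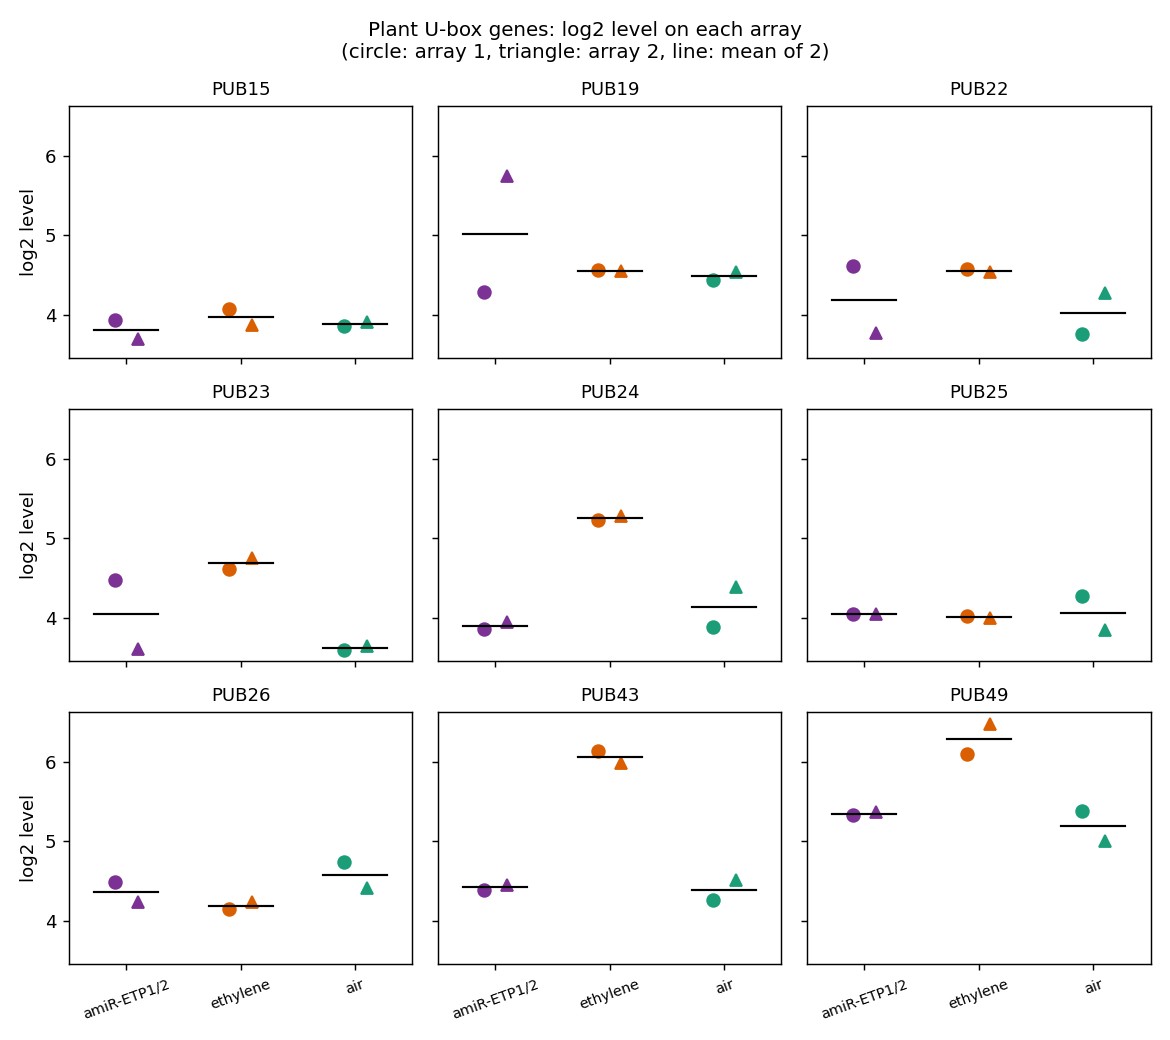
The log2 level of each plant U-box gene is plotted for each array of the amiR-ETP1/2, ethylene and air groups, with the group mean as a line. PUB24, PUB43 and PUB49 are high on both ethylene arrays alone, while PUB19, PUB22 and PUB23 differ widely between the amiR-ETP1/2 arrays.

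PUB43 (AT1G76390, chromosome 1), a close relative of the senescence-associated ligase SAUL1, showed the largest change. Its log2 level was 4.39 and 4.46 in amiR-ETP1/2, 6.13 and 5.99 with ethylene and 4.26 and 4.51 in air. Both ethylene arrays lay above the other 4, and the amiR-ETP1/2 arrays lay inside the range of the air arrays. The rise with ethylene was 1.68 log2 units or 3.20-fold (SE 0.14, adjusted p = 6.73e-05, n = 2 arrays per group in a limma fit to all arrays), and this difference exceeded that of 94.4% of probe sets.

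PUB22, PUB23 and PUB24 encode related ligases with a U-box and armadillo repeats that act together to damp the immune response to microbial patterns. PUB24 (AT3G11840, chromosome 3) had log2 levels of 3.86 and 3.95 in amiR-ETP1/2, 5.23 and 5.28 with ethylene and 3.89 and 4.39 in air. The ethylene arrays were again above all others, with a rise of 1.12 log2 units or 2.17-fold over air (SE 0.18, adjusted p = 0.00192). PUB23 (AT2G35930, chromosome 2) had log2 levels of 4.48 and 3.61 in amiR-ETP1/2, 4.61 and 4.76 with ethylene and 3.60 and 3.64 in air. Both air arrays and amiR-ETP1/2 array 2 were low, whereas amiR-ETP1/2 array 1 came close to the ethylene arrays. The rise with ethylene was 1.06 log2 units or 2.09-fold (SE 0.26, adjusted p = 0.0152). The PUB23 call did not hold when any 1 of the 4 ethylene and air arrays was left out (differences 0.99 to 1.14, adjusted p = 0.0581 to 0.112), although the size of the difference changed little.

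PUB22 (AT3G52450, chromosome 3) had log2 levels of 4.61 and 3.77 in amiR-ETP1/2, 4.57 and 4.54 with ethylene and 3.76 and 4.28 in air. The ethylene arrays lay above both air arrays, but the difference of 0.54 did not pass the test (SE 0.29, adjusted p = 0.208). It ran from 0.27 without air array 1 to 0.80 without air array 2. Whether the probes of PUB22 and PUB23 bind each other's transcripts was not tested.

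PUB49 (AT5G67530, chromosome 5) joins a U-box to a cyclophilin domain, the fold of a family of peptidyl-prolyl isomerases. Its log2 level was 5.33 and 5.37 in amiR-ETP1/2, 6.10 and 6.48 with ethylene and 5.39 and 5.00 in air. The ethylene arrays did not overlap the others, and the rise was 1.09 log2 units or 2.14-fold (SE 0.18, adjusted p = 0.00251).

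PUB25 and PUB26 form a pair of closely related ligases that act on the immune kinase BIK1 and, in the cold, on the transcription factor MYB15. PUB26 (AT1G49780, chromosome 1) had log2 levels of 4.49 and 4.24 in amiR-ETP1/2, 4.14 and 4.24 with ethylene and 4.74 and 4.41 in air. Both ethylene arrays were below both air arrays, and the difference of -0.38 was not called (SE 0.16, adjusted p = 0.113). PUB25 (AT3G19380, chromosome 3) had log2 levels of 4.05 and 4.05 in amiR-ETP1/2, 4.02 and 4.00 with ethylene and 4.28 and 3.84 in air. The ethylene values lay between the air values (difference -0.05, SE 0.16, adjusted p = 0.865). All 4 protein-coding loci within 2 places of PUB25 were measured and called with ethylene, beside 36.0% of all probe sets. Of these AT3G19390 was higher by 6.49 log2 units and the other 3 were lower.

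PUB19 (AT1G60190, chromosome 1), which with PUB18 restrains the response to abscisic acid and drought, had log2 levels of 4.29 and 5.75 in amiR-ETP1/2, 4.56 and 4.55 with ethylene and 4.44 and 4.54 in air. The amiR-ETP1/2 arrays held both the lowest and the highest PUB19 value of the study. Its difference with ethylene was 0.07 (SE 0.40, adjusted p = 0.929). PUB15 (AT5G42340, chromosome 5) had log2 levels of 3.93 and 3.70 in amiR-ETP1/2, 4.08 and 3.87 with ethylene and 3.86 and 3.91 in air. These ranges overlapped, with a difference of 0.09 with ethylene (SE 0.14, adjusted p = 0.702).

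Over the 9 genes the median difference of ethylene from air was 0.54 log2 units, beside a median of -0.003 over all probe sets, and it was 0.27 without air array 1. The ethylene and air arrays did not overlap for 7 of the 9 genes, against 66.4% of all probe sets. The group means of 6 genes in amiR-ETP1/2, 3 with ethylene and 6 in air lay below the mean of the array medians of that group. Whether the deposited values compress folds at such low levels was not tested. The ethylene arrays differed by at most 0.20 log2 units for 8 of the U-box genes and by 0.38 for PUB49.

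**Figure D2:**
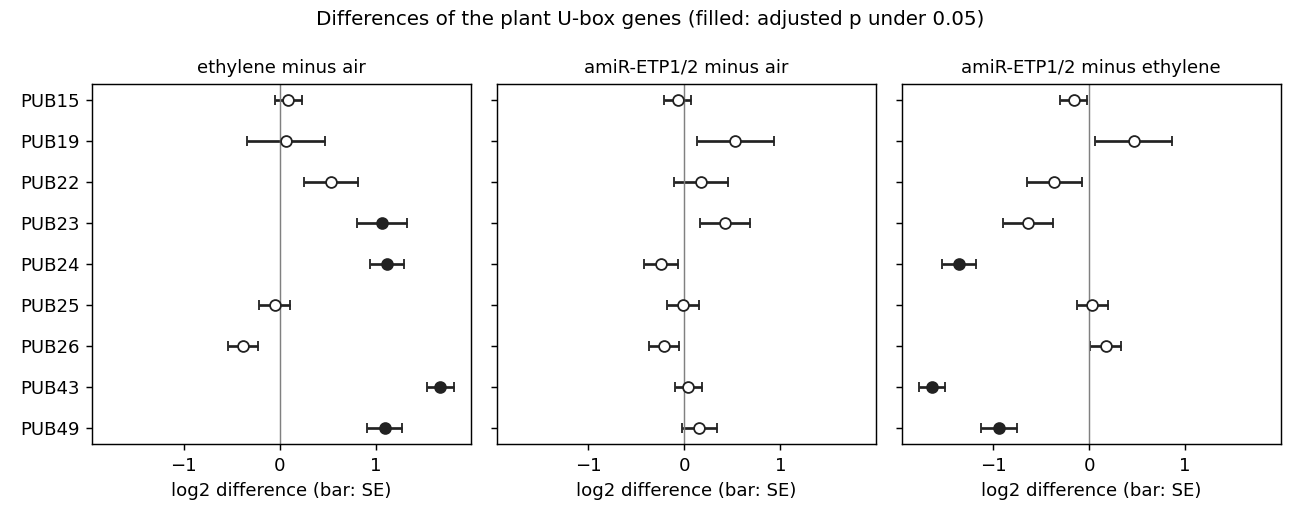
The log2 difference of each plant U-box gene is drawn with its SE for ethylene against air, for amiR-ETP1/2 against air and for amiR-ETP1/2 against ethylene, and filled points passed the limma test. The 4 filled points of the first panel lie between 1.06 and 1.68, the second panel has no filled point, and the third has 3 between -1.64 and -0.94.

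In amiR-ETP1/2 against air, limma called 0 of 9 plant U-box genes, and 0 of 9 had an unadjusted p under 0.05, beside 0.620% and 15.1% of all probe sets. The arrays of the groups overlapped for all 9 genes, while 44.5% of probe sets had no overlap. Differences ran from -0.24 for PUB24 (SE 0.18, adjusted p = 0.584) to 0.53 for PUB19 (SE 0.40, adjusted p = 0.593), with a median of 0.04. The 3 genes with the widest gaps between amiR-ETP1/2 arrays were PUB19 at 1.46, PUB23 at 0.87 and PUB22 at 0.84 log2 units, where the median gap of all probe sets was 0.16. PUB23 and PUB22 were higher on array 1 and PUB19 was higher on array 2, so a single array decided each of these values. Without amiR-ETP1/2 array 1, PUB19 was called higher than in air by 1.26 (adjusted p = 0.0261), and without array 2 its difference was -0.20.

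The comparison of amiR-ETP1/2 with ethylene shares the ethylene arrays with the comparison of ethylene with air. Its groups differ in genotype and in the labelled ethylene exposure, and the labels give no gas treatment for the line. PUB43 was lower in amiR-ETP1/2 with a log2 difference of -1.64 (SE 0.14, adjusted p = 7.52e-05), PUB24 with one of -1.35 (SE 0.18, adjusted p = 0.000667) and PUB49 with one of -0.94 (SE 0.18, adjusted p = 0.00509). These were 3 of 9 genes, and 20.2% of all probe sets were called lower and 38.4% in either direction. For PUB23 the difference was -0.64 (SE 0.26, adjusted p = 0.0964), with both amiR-ETP1/2 arrays below both ethylene arrays. The other 5 genes were not called, and the groups did not overlap for 5 of the 9 genes, against 71.0% of probe sets. Without amiR-ETP1/2 array 1 the count was 6, with PUB23 and PUB22 lower (log2 differences -1.08 and -0.78) and PUB19 higher by 1.19.

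RING genes were taken by name, 6 from lists of ligase roles and 7 added after their values had been seen. With ethylene 4 of the 13 rose and 2 fell, with a median of 0.26. Over all probe sets 18.9% were called higher and 36.0% in either direction. ATL8, a RING-H2 protein of the membrane-bound ATL family, had log2 levels of 4.17 and 4.31 in amiR-ETP1/2, 9.07 and 9.19 with ethylene and 4.46 and 4.68 in air. Its rise of 4.55 log2 units or 23.5-fold (SE 0.14, adjusted p = 1.18e-06) was larger than that of any plant U-box gene. AT5G53360 rose 6.27-fold, RHF1A, which takes part in gamete formation by removing a cell-cycle inhibitor, rose 2.47-fold, and LUL2, of the LOG2-like ubiquitin ligases, rose 2.09-fold. RING1, a membrane ligase tied to programmed cell death, had log2 levels of 6.97 and 6.79 in amiR-ETP1/2, 5.84 and 6.04 with ethylene and 7.36 and 7.59 in air, a fall with ethylene (log2 difference -1.53, SE 0.15, adjusted p = 0.000147). LUL4, of the same family, had a difference of -0.69 (adjusted p = 0.0182), a call lost without either ethylene array or air array 2. XERICO, a RING-H2 gene that raises abscisic acid, had a difference of 0.66 with ethylene (adjusted p = 0.247), which was called when the amiR-ETP1/2 arrays were left out (adjusted p = 0.00661). None of the 13 was called in amiR-ETP1/2 against air with all 6 arrays, and 3 had an unadjusted p under 0.05, beside 0.620% and 15.1% of probe sets. In that comparison the XERICO value depended on 1 array. Its log2 levels were 5.19 and 6.56 in amiR-ETP1/2 and 6.62 and 6.46 in air, a difference of -0.67. Without amiR-ETP1/2 array 2 the difference was -1.35.

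Of the role lists, 4 of 19 entries for abscisic acid and drought were measured and 1, PUB23, rose with ethylene. Beside all these lists, 18.9% of all probe sets were called higher with ethylene and 36.0% in either direction. Of 20 immunity entries 6 were measured, of which PUB23 and PUB24 rose and RING1 fell. Of 6 entries for nutrients and senescence 2 were measured and ATL8 rose, while AT1G20823 had a difference of -0.46 (adjusted p = 0.154). Of 9 entries for growth 2 were measured, AT5G53360, which rose, and the brassinosteroid-responsive gene BRH1, with a difference of 0.26 (adjusted p = 0.443). The lists for light, ethylene, the endoplasmic reticulum and peroxisome, chromatin, and SCF and APC subunits had no entry with a named single-gene probe set. Entries called measured are those with such a probe set, so the array may read others without a name. None of the members of these lists was called by limma in amiR-ETP1/2 against air. There 1 immunity and 1 nutrient gene had an unadjusted p under 0.05. The shares of all probe sets were 0.620% called and 15.1% with an unadjusted p under 0.05.

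**Figure D3:**
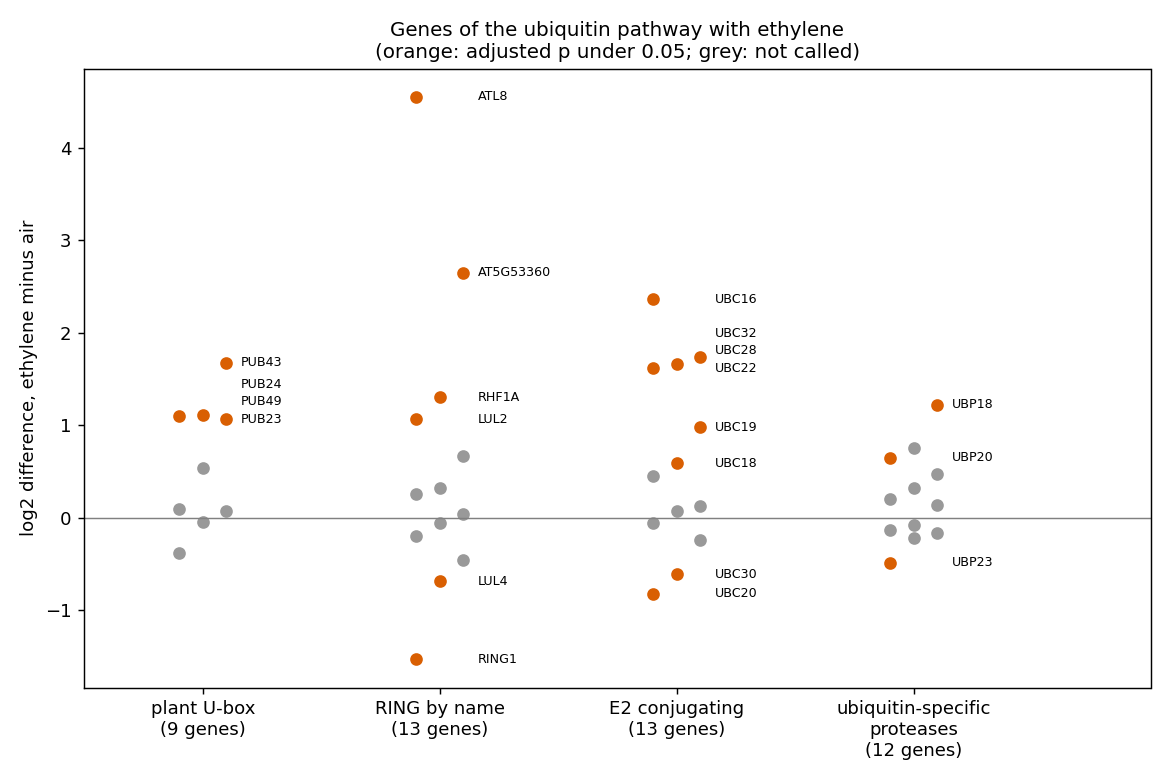
The log2 difference of ethylene minus air is plotted for each of 9 plant U-box genes, 13 RING genes by name, 13 E2 genes and 12 ubiquitin-specific protease genes, with genes past the limma test in orange and named to their right, in the order of their values. Called rises and falls numbered 4 and 0, 4 and 2, 6 and 2, and 2 and 1. Over all 22746 probe sets, 4291 of the 8185 called were higher. Of the RING genes, 7 were added after their values had been seen. ATL8 lies farthest from 0.

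Among the enzymes around the ligases, 6 of 13 measured E2 genes rose with ethylene and 2 fell, with a median of 0.45. For these and the counts below, 18.9% of all probe sets were called higher with ethylene and 36.0% in either direction. UBC16 rose 5.14-fold, with log2 levels of 4.88 and 4.81 in amiR-ETP1/2, 7.07 and 7.07 with ethylene and 4.60 and 4.82 in air. UBC32, an E2 of the breakdown of misfolded proteins at the endoplasmic reticulum, rose 3.35-fold, UBC28 3.17-fold, UBC22 3.06-fold and UBC19, a cell-cycle E2, 1.97-fold. The calls of UBC18, higher by 0.59, and of UBC20 and UBC30, with log2 differences of -0.83 and -0.61, were each lost when 1 of several arrays was left out. The UBC18 call was also lost after quantile normalization and with the trend and robust options of limma. UBC29 was the 1 E2 gene called in amiR-ETP1/2 against air, with log2 levels of 7.09 and 7.31 in amiR-ETP1/2 and 8.17 and 8.40 in air (difference -1.08, SE 0.16, adjusted p = 0.0409). That call was lost from the 4 arrays compared alone (adjusted p = 0.163) and with a replicate block (adjusted p = 0.0591). It was also lost without amiR-ETP1/2 array 1, either ethylene array or either air array, with differences of -1.20 to -0.97. Of 12 ubiquitin-specific proteases, which remove ubiquitin, UBP18 rose 2.33-fold and UBP20 1.57-fold, and UBP23 fell by 0.49 (adjusted p = 0.0134), a call lost without either ethylene array. CUL4, a cullin scaffold, rose 1.36-fold (adjusted p = 0.0254), and of 4 SKP1-like adaptors SK18 fell by 0.79 (adjusted p = 0.0204). Both calls were lost without either ethylene array and without 1 air array. With the trend and robust options of limma the calls of UBP23 and CUL4 were lost as well (adjusted p = 0.0678 and 0.0558). RPN12a, a proteasome subunit on which PUB22 and PUB23 act, had log2 levels of 8.76 and 8.65 in amiR-ETP1/2, 8.80 and 8.65 with ethylene and 8.40 and 8.58 in air, and its difference of 0.24 with ethylene was not called (SE 0.13, adjusted p = 0.236).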

How the data were processed

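The deposited values are log2 levels, 1 per probe set and array, read as log2 by their range of 2.99 to 14.0. The scale, background correction, probe summary and normalization that the authors used are not stated in any label or header; per the submitters' processing notes limma was used. The values entered without further scaling. Of 22753 probe sets, 7 controls were left out and 22746 tested. Group means over the 6 arrays came from lmFit (limma 3.58.1, R 4.3.3) with empirical Bayes moderation (3 residual and 4.15 prior degrees of freedom), two-sided, with Benjamini-Hochberg adjustment over all probe sets and a threshold of 0.05; it was tested on simulated data. Where 1 array is left out, the lone array of its group is assumed to vary like the other groups. The number of arrays limits the precision. P-values set each group difference against the spread between replicate arrays, pooled over the 3 groups and moderated across probe sets.

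Of the probe sets, 13513 had 1 gene name and 503 several, and 13436 single-gene probe sets had a locus in the TAIR10.1 annotation, used for names, chromosomes and gene order. Named genes are all 9 members, up to 4 per role list with the smallest p, and ETP2; other genes were chosen after their values were seen. The members and lists were chosen with earlier results of these data known. Classes of RING by protein sequence were not analysed here. Lists for E1, HECT, BTB and ubiquitin genes matched no named single-gene probe set. As 8730 of the tested probe sets had no gene name, such genes may still be on the array. Same-numbered arrays were not paired, since their deviations correlated at -0.17 to 0.07.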

Additional observations from a re-analysis of the deposited data

How the results depend on the processing

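The 4 rises with ethylene and the 3 lower genes in amiR-ETP1/2 against ethylene were counted again after quantile normalization, after median centring, in fits of the 4 arrays compared, with a replicate block (4 and 3, and 0 against air) and with the air numbers crossed in that block (also 4, 3 and 0; chosen after seeing the data), and none of these settings changed the counts. PUB43, PUB24 and PUB49 kept their calls against air and against amiR-ETP1/2 in all 12 other settings in which single genes were refitted. Leaving out 1 array gave 3 to 4 calls with ethylene, 0 to 1 in amiR-ETP1/2 against air and 3 to 6 against ethylene, and the median differences ran from 0.27 to 0.80 for ethylene minus air and from -0.78 to -0.21 for amiR-ETP1/2 minus ethylene. When the 40% of probe sets with the lowest means were dropped, 6 of the 9 genes remained and 3 were called with ethylene. PUB23, called in the main fit, was itself among the genes dropped for a low mean. The medians, which then cover fewer genes, were 0.82 for ethylene minus air and -0.65 for amiR-ETP1/2 minus ethylene. The trend and robust options gave 4 genes in amiR-ETP1/2 against ethylene. With the RING genes by name added, a choice made after seeing the data, 22 genes were counted and the median with ethylene was 0.29. Counted in either direction, 10 of them were called with ethylene (8 higher and 2 lower). In amiR-ETP1/2 against ethylene 11 were called (2 higher and 9 lower). The choice of probe set and the narrower wording changed nothing, since each gene had 1 probe set and all held the word U-box. There were 2 arrays per group, and the part of low levels in the calls was not tested.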

Other observations

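Within 2 protein-coding loci on either side of the 9 plant U-box genes there were 36 neighbours, of which 21 were measured. With ethylene 6 of them were called higher and 6 lower, beside 36.0% of all probe sets called in either direction and 18.9% higher. Next to PUB43, which rose by 1.68, AT1G76400 was lower (log2 difference -1.19) and AT1G76380 higher by 0.39. Next to PUB24, AT3G11830 was higher by 0.62, and next to PUB19, which was not called, AT1G60200 was higher by 0.72.

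The gaps of PUB19, PUB23 and PUB22 between the amiR-ETP1/2 arrays exceeded those of 99.6%, 98.0% and 97.8% of probe sets on the same arrays. In air the gap of PUB22 was 0.52 and that of PUB24 0.50, where the median gap was 0.17.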
